A study of Arabidopsis thaliana with 36 samples.

Results

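The genes described are 6 protein-coding genes of the Arabidopsis plastid genome in 2 clusters, petL, petG and psaJ, and psaI, cemA and petA. They were chosen by gene name and are 6 of 128 plastid gene entries, or of 113 entries when the repeated part of the plastid genome is counted once. For each gene the log2 ratio of ChIP to input coverage (its enrichment) was followed in all 6 ChIP groups, cluster against cluster and by distance to trnW and trnP. These tRNA genes lie between petG and psaJ. In wild-type seedlings the tRNA genes stood far above input in RpoB and pTAC3 ChIP, with trnP at 3.80- to 4.61-fold of input when libraries were scaled to their mean. Within the petL cluster, psaJ lay near input, petG at 0.64- to 0.71-fold and petL at 0.27- to 0.46-fold of it. The psaI, cemA and petA genes lay at 0.42- to 0.58-fold of input. In the ptac3 and ptac14 mutants all 6 genes had group means between 0.88- and 1.36-fold of input.

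petA encodes cytochrome f, and petL and petG encode small subunits of the same cytochrome b6f complex, which passes electrons from photosystem II towards photosystem I. psaI and psaJ encode small subunits of photosystem I. cemA encodes a protein of the chloroplast inner envelope membrane. trnW and trnP encode the plastid tRNAs for tryptophan and proline. Most photosynthesis genes of the plastid are transcribed by the plastid-encoded RNA polymerase (PEP), whose beta subunit is RpoB. pTAC3 and pTAC14 are nuclear-encoded proteins that associate with PEP in the plastid transcriptionally active chromosome.

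Chromatin immunoprecipitation with sequencing (ChIP-seq) was done on seedlings 5 days old, grown in continuous light and crosslinked with 4% formaldehyde for 4 h. RpoB ChIP was done in the ptac3 mutant and in Col-0, the wild type (the ptac3 set), and in the ptac14 mutant and separate Col-0 libraries (the ptac14 set). pTAC3 was precipitated from the ptac3 mutant, which is mutated in the gene of the antigen, and from Col-0 (the pTAC3 set). Each of these 6 ChIP groups had 3 replicates and its own group of 3 input libraries, 36 libraries in all. The labels give no treatment and name the mutant lines without an allele. Per the labels' protocol 50 seedlings were harvested for an extract, and a pellet enriched in chloroplasts was used, so each value is an average over many plants. The labels do not say that replicates came from separate cultures, so p-values measure only the spread between these libraries. The question the design poses is whether RpoB and pTAC3 still occupy plastid DNA in the ptac3 and ptac14 mutants. The depth of ChIP libraries, as mean coverage of a plastid position, was 59.2 to 204 in the mutants, against 113 to 1538 in Col-0, and that of inputs 318 to 924. Most mutant ChIP libraries were thus the shallower ones, and the part of depth in the results was not tested.

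The petL gene (ArthCp040) spans positions 65712 to 65807 of the plastid genome (TAIR10), 96 bp, and ends 421 bp before trnW. The petG gene (ArthCp041) spans 65998 to 66111, 114 bp, and ends 117 bp before trnW. Next come trnW (ArthCt105) at 66229 to 66302 and trnP (ArthCt106) at 66490 to 66563, with 187 bp between them. The psaJ gene (ArthCp042) spans 66929 to 67063, 135 bp, and starts 365 bp after trnP. The other cluster lies farther off, with psaI (ArthCp032) at 59247 to 59360, cemA (ArthCp034) at 60741 to 61430 and petA (ArthCp035) at 61657 to 62619. Its genes are 3609 to 6868 bp from trnW, which is also the nearest tRNA gene to each of them. Before and after are used here for lower and higher positions and say nothing of the strand. psaI, petL, petG and psaJ are 96 to 135 bp long, shorter than the reach over which coverage values share reads: the noise of the input libraries was correlated at r = 0.847 for bins 50 bp apart and 0.268 for bins 200 bp apart.

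The profile across the region had a tall summit at trnP in the Col-0 groups that was far lower in the mutant groups. At positions 66551 to 66600, over the end of trnP, mean enrichment was 0.22 in ptac3 against 1.96 in Col-0 of the ptac3 set. It was 0.33 in ptac14 against 2.26 in Col-0 of the ptac14 set. pTAC3 ChIP gave 0.36 in ptac3 against 2.21 in Col-0. The mutant profiles had dips elsewhere, the deepest being -0.70 in ptac3 with RpoB ChIP and -0.88 in ptac3 with pTAC3 ChIP at positions 59051 to 59100, before psaI. All 9 Col-0 ChIP libraries lay above their input over 700 bp without a break, from 66151 to 66850. That stretch begins after the end of petG and stops before the start of psaJ. Over the whole plastid genome 655 of 3089 bins of 50 bp (21.2%) were above input in all 9 Col-0 ChIP libraries. In all 9 mutant ChIP libraries 37 of the 3089 bins were.

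**Figure D1:**
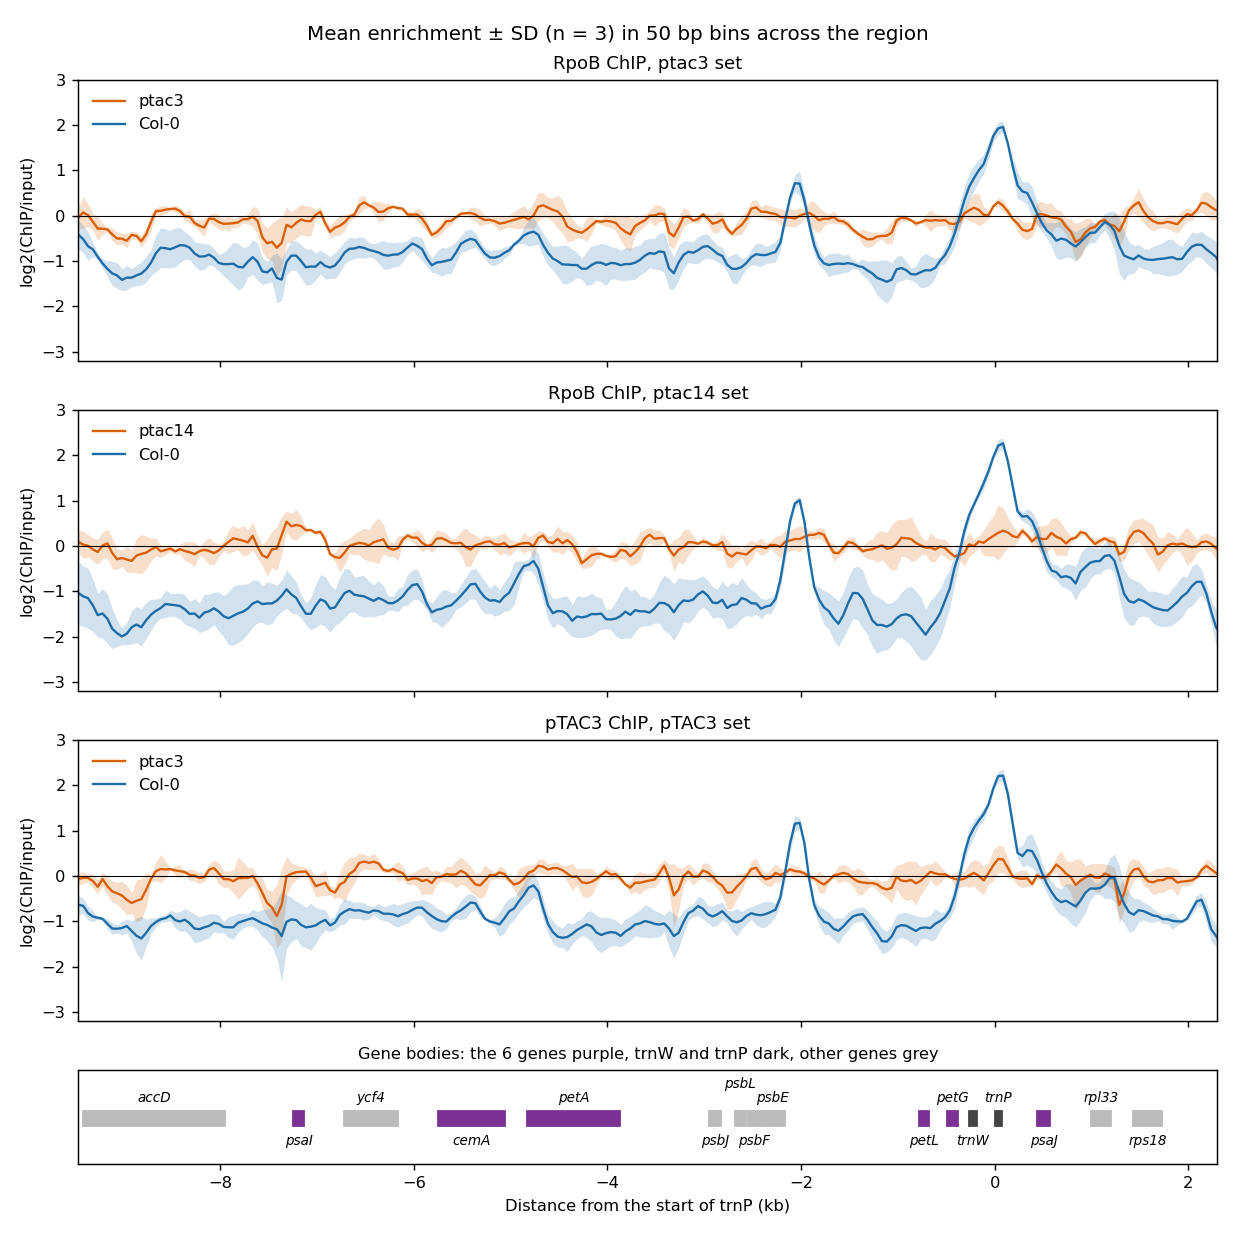
Mean log2 ratio of ChIP to input coverage in 50 bp bins (lines; shading is the SD over 3 replicates), mutant and Col-0, against the distance from the start of trnP in kb, for the 3 sets, with gene bodies at the bottom. Col-0 reaches 1.96 to 2.26 at trnP, lies below 0 over petL, psaI, cemA and petA and rises above 0 again beside psbE, while the mutants are lower at trnP and have their own dips, the deepest just before psaI in both ptac3 groups. Libraries are scaled to their mean, and the place of the line at 0 depends on that scaling.

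The genes of the petL cluster sit at different places in that profile. In Col-0 petL lay in a trough, where none of the bins that overlap it was above input in any of the 9 libraries. The petG body lay on the rise towards trnW. Col-0 means rose from positions 65951 to 66000, the first bin that overlaps petG, to 66101 to 66150, the last. Both bins lie mostly outside the gene. Their means were -0.87 and -0.03 for RpoB in the ptac3 set and -1.21 and -0.15 in the ptac14 set. For pTAC3 they were -0.91 and -0.01. The psaJ body lay on the descent from trnP. The bin over its start, 66901 to 66950, stood at 0.06, 0.30 and 0.36 in Col-0 of the ptac3, ptac14 and pTAC3 sets. The bin over its end, 67051 to 67100, stood at -0.41, -0.54 and -0.35. These bins too lie mostly outside the gene.

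petL, a small cytochrome b6f subunit gene, was the lowest of the 6 in every Col-0 group. Its enrichment was -0.02, -0.16 and -0.15 in the ptac3 replicates, against -1.63, -0.999 and -1.02 in Col-0 of the ptac3 set. It was 0.04, 0.11 and -0.20 in ptac14, against -1.26, -1.96 and -2.47 in Col-0 of the ptac14 set. With pTAC3 ChIP it was 0.04, -0.33 and 0.19 in ptac3, against -0.94, -1.08 and -1.39 in Col-0. Mutant and Col-0 libraries did not overlap in any set. The lowest single value, from Col-0 replicate 3 of the ptac14 set, came from scaled ChIP coverage of 0.115 of the library mean over an input of 0.867. The differences of the means were 1.10 ± 0.18, 1.88 ± 0.26 and 1.10 ± 0.17 (limma, ± SE) for the ptac3, ptac14 and pTAC3 sets, with adjusted p of 4.0e-09, 3.8e-06 and 2.0e-10.

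petG, the other small cytochrome b6f subunit gene, moved less. It stood at -0.19, -0.02 and -0.32 in ptac3, against -0.22, -0.55 and -0.72 in Col-0 of the ptac3 set. It stood at -0.10, -0.22 and -0.24 in ptac14, against -0.32, -0.60 and -1.04 in Col-0 of the ptac14 set. With pTAC3 as antigen it stood at 0.02, -0.10 and -0.04 in ptac3, against -0.74, -0.62 and -0.34 in Col-0. The groups overlapped in the ptac3 set and were apart in the other sets. The difference was 0.32 (95% interval -0.03 to 0.67, limma adjusted p = 0.084) in the ptac3 set and 0.47 (0.0084 to 0.92, adjusted p = 0.057) in the ptac14 set. Both missed the threshold of 0.05, and in the pTAC3 set the difference of 0.52 ± 0.17 passed it (adjusted p = 0.0021). The values of the ptac14 set pointed to pairing by replicate number, which the labels do not name. With the replicate number as a block, the same 0.47 had a limma adjusted p of 0.011. Col-0 replicate 1 decided the call in both RpoB sets. Without it the difference was 0.46 (adjusted p = 0.0041) in the ptac3 set and 0.63 (adjusted p = 0.011) in the ptac14 set.

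psaJ, a small photosystem I subunit gene, passed the test in no set with libraries scaled to their mean. Its values were 0.33, -0.15 and -0.11 in ptac3, against -0.42, -0.05 and -0.17 in Col-0 of the ptac3 set. They were 0.36, 0.30 and -0.16 in ptac14, against 0.01, 0.01 and -0.40 in Col-0 of the ptac14 set. With pTAC3 ChIP they were -0.07, -0.03 and 0.03 in ptac3, against 0.13, 0.11 and -0.24 in Col-0. Mutant and Col-0 libraries overlapped in every set. The differences were 0.23 (95% interval -0.12 to 0.58), 0.29 (-0.16 to 0.75) and -0.02 (-0.35 to 0.30) for the ptac3, ptac14 and pTAC3 sets. Their limma adjusted p were 0.21, 0.21 and 0.89, and the intervals leave room for differences up to those bounds. Compared by replicate number, psaJ was higher in ptac14 than in the same-numbered Col-0 library by 0.36, 0.28 and 0.24. That pairing was inferred from the values and is not named in the labels. With the replicate number as a block, the psaJ difference of 0.29 ± 0.18 (SE) in the ptac14 set had a limma adjusted p of 0.10.

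Of the psaI-cemA-petA cluster, petA, the cytochrome f gene, stood at 0.06, -0.02 and -0.24 in ptac3, against -1.23, -0.64 and -0.84 in Col-0 of the ptac3 set. It stood at 0.10, -0.09 and -0.14 in ptac14, against -0.92, -1.40 and -1.45 in Col-0 of the ptac14 set. pTAC3 ChIP put it at 0.10, -0.02 and 0.11 in ptac3, against -0.74, -1.04 and -1.26 in Col-0. The groups were apart in every set. The differences were 0.83 ± 0.18, 1.22 ± 0.21 and 1.07 ± 0.17 (limma, ± SE), with adjusted p of 6.0e-06, 3.5e-05 and 5.4e-10 for the ptac3, ptac14 and pTAC3 sets.

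cemA, which shares its cluster and much of its profile with petA, averaged -0.07 ± 0.05 in ptac3 and -0.78 ± 0.19 in Col-0 of the ptac3 set (SD, n = 3 each). It averaged 0.06 ± 0.18 in ptac14 and -1.13 ± 0.28 in Col-0 of that set. Its pTAC3 ChIP means were 0.00099 ± 0.13 in ptac3 and -0.85 ± 0.14 in Col-0. psaI, the other photosystem I subunit gene, averaged -0.12 ± 0.33 in ptac3 and -0.95 ± 0.35 in Col-0 of the ptac3 set. It averaged 0.44 ± 0.26 in ptac14 and -1.25 ± 0.28 in Col-0 of that set. Its pTAC3 ChIP means were 0.09 ± 0.13 in ptac3 and -1.03 ± 0.44 in Col-0. For both genes the groups were apart in every set. The limma differences were 0.71, 1.19 and 0.85 for cemA and 0.83, 1.69 and 1.12 for psaI for the ptac3, ptac14 and pTAC3 sets, and the largest adjusted p among these 6 was 0.00011. psaI in ptac14 was the highest group mean of any of the 6 genes in a mutant, at 0.64, 0.53 and 0.15. It missed the threshold against input in the limma fit (adjusted p = 0.20) and passed it with the replicate number as a block (adjusted p = 0.0085) and without Col-0 replicate 3 (adjusted p = 0.048), which alters only the shared spread.

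**Figure D2:**
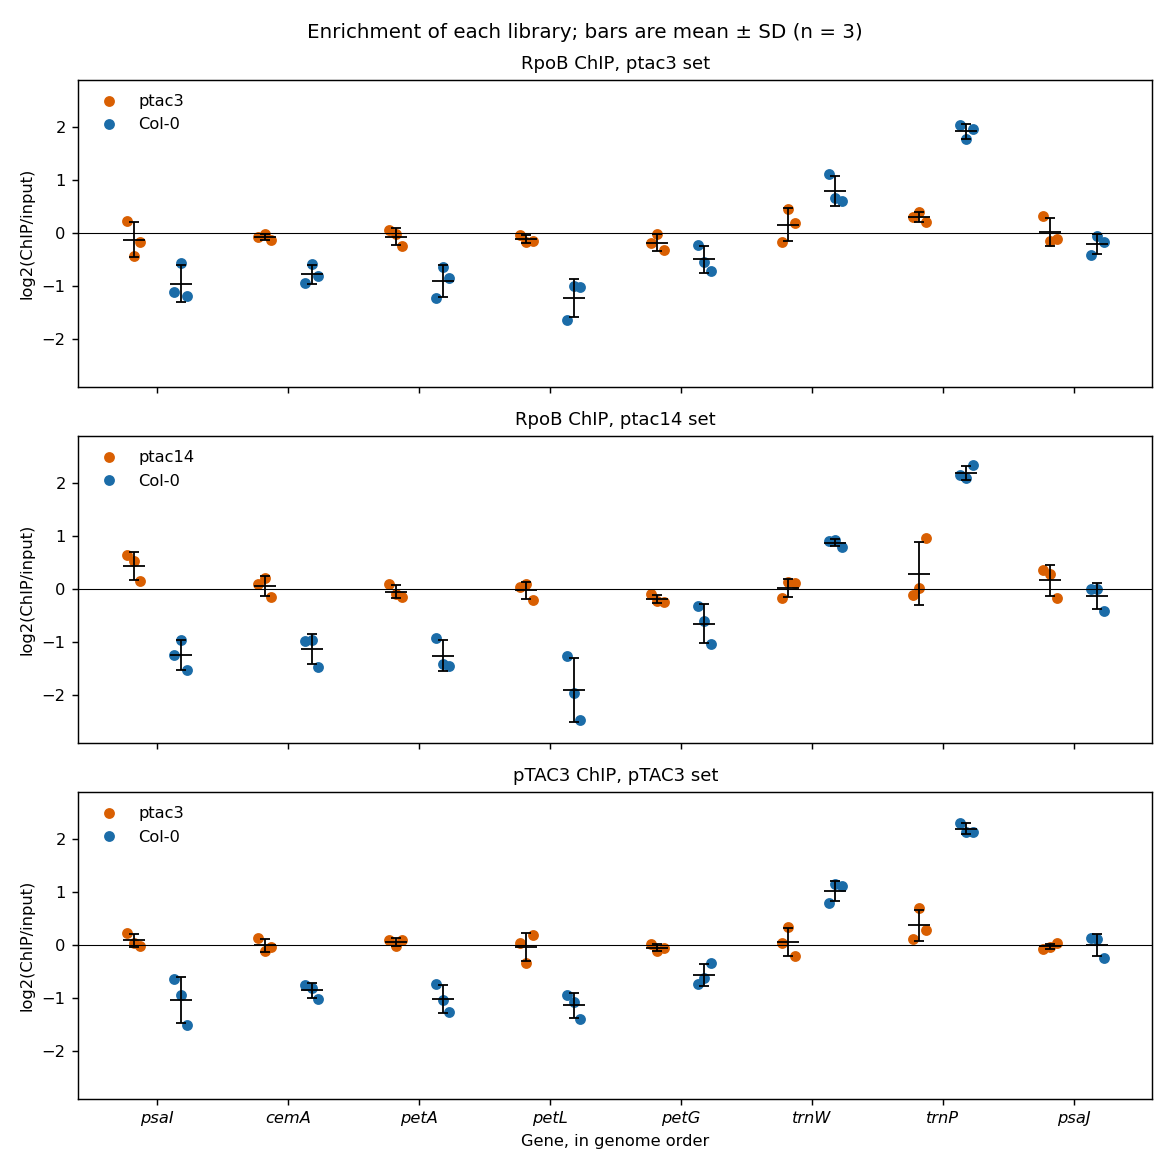
Log2 ratio of ChIP to input for each library (points) of the 6 genes, trnW and trnP in genome order, mutant left of Col-0, with the mean and SD of 3 replicates (black), for the 3 sets. Most mutant libraries lie near 0; in Col-0 psaI, cemA, petA and petL lie below 0, trnW and trnP above it, and petG and psaJ between, all with libraries scaled to their mean.

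As counts, 4, 4 and 5 of the 6 genes were higher in the mutant for the ptac3, ptac14 and pTAC3 sets and 0 were lower, with libraries scaled to their mean. Over all gene entries 51.6%, 53.9% and 52.3% were called higher and 30.5%, 27.3% and 36.7% lower, so higher calls were common throughout the plastid genome. The mutant of the pTAC3 set is mutated in the gene of the antigen, so a higher call there does not show more pTAC3 at a gene. The groups did not overlap for 87.5%, 90.6% and 91.4% of all gene entries, so groups that stand apart were common as well. Among the 6 genes petL, psaI, cemA and petA were apart in every set, petG in the ptac14 and pTAC3 sets, and psaJ in none. Against input, on the same scaling, 5 of the 6 genes were lower in each Col-0 group, all except psaJ, beside 55.5%, 57.0% and 53.1% of all entries. In the mutants 0 of the 6 passed the limma test against input in any set, beside 0.781%, 1.56% and 3.12% of all entries called in either direction, and psaI in ptac14 alone had an unadjusted p under 0.05 (0.011). With the replicate number as a block, the ptac14 set had 5 of the 6 genes higher in the mutant, beside 57.8% of all entries, and 1 of the 6, psaI, off input in ptac14, beside 7.03% of all entries. The limma standard error of a change was 0.166 for every entry of the pTAC3 set and 0.178 to 0.179 in the ptac3 set, where p-values rest on a spread shared by the genes, and 0.191 to 0.271 in the ptac14 set.

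Scaling a library to its own mean makes these values relative, since a library that gains over some positions must lose over others. The median gene entry itself was higher in the mutant by 0.60, 0.86 and 0.54 for the ptac3, ptac14 and pTAC3 sets, and lower, at -0.29, -0.47 and -0.39, with libraries scaled to their median bin. With libraries scaled to rpoB, rpoC1 and rpoC2, whose genes encode PEP subunits, it was lower still, at -0.68, -1.16 and -1.05. These rpo genes are among the lowest protein-coding genes in Col-0, with rpoB at -1.30, -1.96 and -1.48 on the mean scaling. Setting them as the reference by itself lifts nearly all entries above input in Col-0 and turns nearly all changes downward. Another scaling shifts nearly all entries of a library alike, so the place of a gene relative to the median entry is kept by construction. With libraries scaled to their mean petL lay above it by 0.50, 1.02 and 0.56 for the ptac3, ptac14 and pTAC3 sets, psaI by 0.23, 0.83 and 0.58, petA by 0.23, 0.35 and 0.53 and cemA by 0.11, 0.33 and 0.31. psaJ lay below it, at -0.37, -0.57 and -0.57, and petG at -0.28, -0.40 and -0.02. The changes themselves turn with the scaling, and with the rpo scaling all 6 genes were lower in the mutants than in Col-0 except petL in ptac14, at 0.02, and all 6 were above input in every Col-0 group.

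The comparison of the clusters within a library takes out, by construction, nearly all of the shift that a scaling adds. The mean of petL, petG and psaJ minus the mean of psaI, cemA and petA was -0.03, 0.05 and -0.02 in ptac3, against 0.34, 0.06 and 0.31 in Col-0 of the ptac3 set. It was -0.17, -0.16 and -0.16 in ptac14, against 0.52, 0.27 and 0.17 in Col-0 of the ptac14 set. With pTAC3 ChIP it was -0.16, -0.13 and 0.04 in ptac3, against 0.19, 0.40 and 0.60 in Col-0. The petL cluster was thus the higher of the pair in all 9 Col-0 libraries, and in 2 of 9 mutant libraries. Group means were -0.0017 ± 0.045 in ptac3 and 0.24 ± 0.16 in Col-0, -0.16 ± 0.0093 in ptac14 and 0.32 ± 0.18 in Col-0, and -0.08 ± 0.11 in ptac3 and 0.40 ± 0.21 in Col-0 of the pTAC3 set (SD, n = 3 each). In ptac14 the means of the psaI-cemA-petA cluster were 0.44 for psaI, 0.06 for cemA and -0.04 for petA. The negative cluster difference in ptac14 thus leans on psaI, and its small SD does not cover that spread among genes. Being a score over chosen genes, the difference between clusters was not tested.

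The average hides how unlike the genes of the petL cluster are. Between its lowest and highest gene the Col-0 means spanned 1.00, 1.77 and 1.14 for the ptac3, ptac14 and pTAC3 sets, against 0.17, 0.13 and 0.18 within the psaI-cemA-petA cluster. psaJ minus petL was 0.35, 0.0039 and 0.04 in ptac3, against 1.21, 0.95 and 0.85 in Col-0 of the ptac3 set. It was 0.32, 0.19 and 0.04 in ptac14, against 1.27, 1.97 and 2.07 in Col-0 of that set. In pTAC3 ChIP it was -0.11, 0.30 and -0.15 in ptac3, against 1.07, 1.19 and 1.15 in Col-0. The groups did not overlap in any set. psaJ and petL are the highest and lowest genes of the cluster in these same Col-0 groups. Their choice thus favours a large difference in Col-0, and it was not tested. petG minus petL was also positive in all 9 Col-0 libraries, but its mean of 0.72 ± 0.60 in Col-0 of the ptac3 set rests on replicate 1 and was 0.37 without it. In Col-0 of the pTAC3 set the mean was 0.57 ± 0.43, and 0.33 without replicate 3.

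**Figure D3:**
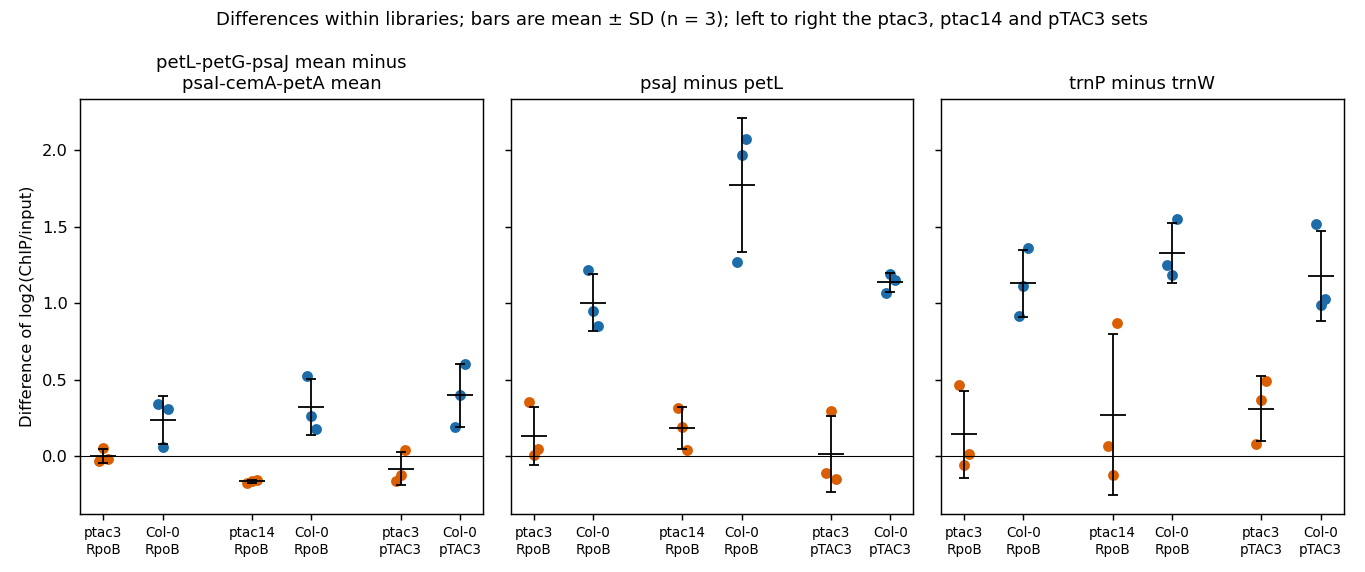
Differences of log2 enrichment within each library (points), with the mean and SD of 3 replicates, mutant left of Col-0 for the ptac3, ptac14 and pTAC3 sets. The petL cluster minus the psaI-cemA-petA cluster averages 0.24, 0.32 and 0.40 in Col-0; psaJ minus petL averages 1.00, 1.77 and 1.14 in Col-0; trnP minus trnW is shown for scale.

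With libraries scaled to their mean, the tRNA genes beside the petL cluster were lower in the mutants than in Col-0. trnP stood at 0.30, 0.40 and 0.21 in ptac3, against 2.04, 1.77 and 1.97 in Col-0 of the ptac3 set. It stood at -0.11, 0.01 and 0.98 in ptac14, against 2.16, 2.10 and 2.35 in Col-0 of that set. In pTAC3 ChIP it stood at 0.12, 0.71 and 0.30 in ptac3, against 2.32, 2.14 and 2.14 in Col-0. The mutants lay below every Col-0 library, and ptac14 replicate 3 stood well above the other ptac14 replicates. The trnP differences were -1.63, -1.91 and -1.82, and those of trnW -0.64, -0.85 and -0.96 (limma, largest adjusted p = 0.00060). With the rpo scaling, where petG and psaJ were lower in the mutants too, the trnP differences were -2.96, -4.01 and -3.48.

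At equal distances of up to 1000 bp from the tRNA pair, the side after trnP was higher in Col-0 than the side before trnW. Distances were counted from trnW on the side before it and from trnP on the side after it. Measured from trnP alone, where the summit lies, petL is 682 bp away and psaJ 365 bp, so the sides are not matched. Bins over 300 and up to 600 bp before trnW, which hold petL, averaged -1.18 ± 0.25, -1.74 ± 0.61 and -1.11 ± 0.27 in Col-0 of the ptac3, ptac14 and pTAC3 sets (SD, n = 3). Bins at the same distance after trnP, which hold psaJ, averaged -0.18 ± 0.25, -0.11 ± 0.20 and -0.0050 ± 0.25. The side after trnP minus the side before trnW was 0.07 ± 0.14 in ptac3 and 1.00 ± 0.06 in Col-0 of the ptac3 set. It was 0.20 ± 0.15 in ptac14 and 1.63 ± 0.42 in Col-0 of the ptac14 set. With pTAC3 ChIP it was 0.04 ± 0.26 in ptac3 and 1.11 ± 0.04 in Col-0. Nearest the tRNA genes, at 1 to 100 bp, the Col-0 sides differed by 1.29, 1.56 and 1.34.

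In the other cluster a stretch over the start of petA stood out from the rest of the gene in Col-0. The stretch begins before the gene, which starts at 61657. Over positions 61601 to 61800 enrichment averaged 0.02 ± 0.26 in ptac3 and -0.40 ± 0.23 in Col-0 of the ptac3 set. It averaged 0.07 ± 0.18 in ptac14 and -0.42 ± 0.20 in Col-0 of that set. In pTAC3 ChIP it averaged 0.09 ± 0.18 in ptac3 and -0.31 ± 0.27 in Col-0. The remainder of the gene, 61851 to 62600, averaged -0.14, -0.10 and 0.02 in the mutants against -1.05, -1.52 and -1.23 in Col-0. The start minus the remainder was 0.32, 0.14 and 0.02 in ptac3, against 0.81, 0.25 and 0.90 in Col-0 of the ptac3 set. It was 0.22, 0.22 and 0.08 in ptac14, against 0.89, 1.01 and 1.40 in Col-0 of that set. In pTAC3 ChIP it was -0.16, 0.11 and 0.25 in ptac3, against 0.88, 1.02 and 0.87 in Col-0. The groups overlapped in the ptac3 set only. This stretch was picked from the profile after its values were seen and was not tested.

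Set beside all plastid protein-coding genes, psaJ, petG and petL lay far apart among the genes close to a tRNA gene. Of 79 protein-coding genes, repeat counted once, 22 lie within 500 bp of a tRNA gene. Their median enrichment in Col-0 was -0.57, -0.83 and -0.61 for the ptac3, ptac14 and pTAC3 sets, against -0.90, -1.26 and -0.95 for the 57 farther away. Among the 22, psaJ ranked 7, 4 and 5 from the top, petG 11 in each set, and petL 21, 22 and 19. psaI, cemA and petA belong to the farther genes, and cemA lay above that group's median in every set, at -0.78, -1.13 and -0.85. In the mutants the medians were -0.00075, 0.0073 and -0.01 for the near genes and -0.02, 0.02 and -0.0029 for the far genes for the ptac3, ptac14 and pTAC3 sets.

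**Figure D4:**
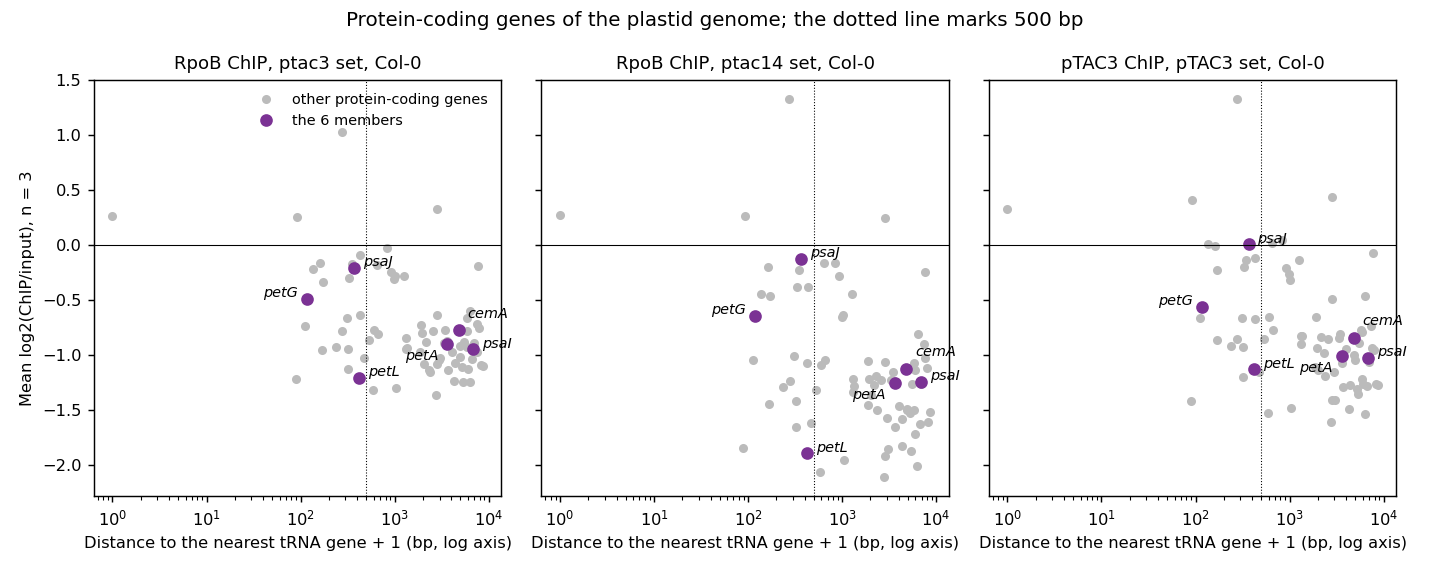
Mean log2 ratio of ChIP to input in Col-0 (n = 3) for 79 protein-coding genes against the distance to the nearest tRNA gene plus 1 bp, on a log axis, for the 3 sets; purple points are the 6 genes and grey points the others. psaJ lies near 0, petL is among the lowest of the genes left of the dotted line at 500 bp, and psaI, cemA and petA lie inside the cloud of distant genes.

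Other plastid genes of the same complexes are given as counts. Of the 6 plastid cytochrome b6f genes (petA, petB, petD, petG, petL and petN), 4, 4 and 5 were called higher in the mutant for the ptac3, ptac14 and pTAC3 sets and 0 lower, beside 51.6%, 53.9% and 52.3% of all entries called higher. Their median difference was 0.94, 1.39 and 1.09, beside 0.60, 0.86 and 0.54 over all entries. petN, a further small subunit, was called in no set, at 0.17, 0.16 and 0.13, while petB, the cytochrome b6 gene, was at 1.17, 1.58 and 1.23. Of the 5 photosystem I genes (psaA, psaB, psaC, psaI and psaJ) 4 were called higher in every set and 0 lower, beside those same shares, with a median of 0.69, 0.95 and 0.56. ycf3 and ycf4, which encode assembly factors of photosystem I, were both called higher. With libraries scaled to the median bin 1, 3 and 2 cytochrome b6f genes were called higher and 1, 2 and 1 lower. Of the photosystem I genes 1 was then called higher in each set and 2, 3 and 3 lower. Over all entries 10.2%, 21.1% and 17.2% were called higher and 50%, 53.1% and 50.8% lower on that scaling. With the rpo scaling 0 genes of these lists were called higher, beside 0.0% of all entries, and of the cytochrome b6f genes 3, 5 and 6 were called lower, beside 69.5%, 82.0% and 83.6%.

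The genes most like each of the 6, by the root mean square difference over the 18 enrichment values, were not its cluster neighbours except for rpl33, the gene that follows psaJ and encodes a ribosomal protein. Nearest to petL were rpl16 (0.168), rps15 (0.174) and ycf1 (0.178), and nearest to petG were ndhK (0.217), rpoA (0.256) and psbM (0.258). Nearest to psaJ were petN (0.181), rpl33 (0.208) and psbZ (0.228). psaI was nearest to ndhG (0.243), ndhE (0.247) and clpP (0.251). cemA was nearest to ndhA (0.0984), ndhF (0.105) and atpA (0.107), and petA to ndhA (0.121), ycf3 (0.125) and atpA (0.128). Among the 6 genes themselves cemA and petA were closest, at 0.176, and petL and psaJ farthest apart, at 0.976.

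Between RpoB and pTAC3 no difference was called at the 6 genes in Col-0, which does not show that they are alike. pTAC3 enrichment minus the mean of both RpoB groups was 0.42 for petL, 0.0084 for petG, 0.17 for psaJ, 0.07 for psaI, 0.11 for cemA and 0.07 for petA. None passed the test (limma, lowest adjusted p = 0.63, for petL), nor did any of the 128 entries, of which 10 had an unadjusted p under 0.05. With libraries scaled to the median bin petL was at 0.28 and the other 5 genes were below 0. The change in ptac14 minus the change in ptac3 was 0.78 for petL, 0.15 for petG, 0.06 for psaJ, 0.86 for psaI, 0.48 for cemA and 0.38 for petA. None of 128 entries passed there either, with 18 at an unadjusted p under 0.05, and with the rpo scaling the differences of petG, psaJ, cemA and petA were negative. Input coverage of the 6 genes, the DNA template, differed between mutant and Col-0 by -0.07 to 0.07 on the log2 scale. The lowest limma adjusted p of these was 0.33, and over all entries 0.0%, 9.38% and 0.781% were called for the ptac3, ptac14 and pTAC3 sets.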

How the data were processed

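The authors deposited whole-number read coverage per plastid position, entered here under the unit other because it is a coverage signal and neither counts nor scaled; it holds 154477 positions and 1 column for each of 36 libraries. Per the submitters' processing notes, Trim Galore 0.4.1, Bowtie2 2.2.8.9, bedtools 2.25.0 and TAIR10 were used; read filters, duplicate removal and the handling of repeat reads are not given in the sources used here. The 6 genes lie outside the repeat, but the library mean they are scaled to takes in both repeat copies. The handling of repeat reads can thus shift their values. Groups came from sample titles and plant lines, since a genotype tag read wild type for all samples, and 1 title carried a stray spreadsheet range. Gene positions came from the RefSeq gene table of TAIR10.1. Its fit to the coverage was checked on the mirrored repeat copies, where the best offset was 0 bp for 36 of 36 libraries.

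Each library was scaled to a mean of 1. Enrichment was log2(ChIP + 5% of the mean) minus the same of the input with the same group and replicate number, over gene bodies or 50 bp bins. The pseudocount understates ratios of low values. limma 3.58.1 in R 4.3.3 tested 128 entries per set (two-sided, Benjamini-Hochberg, threshold 0.05), because coverage is not a count of independent reads. The code of the fit was tried on simulated data with independent noise of equal size for all genes. Such data lack shared reads and shifts common to a library, so they do not show how reliable the calls here are. Counting error at the mean coverage of a library was 2.55% to 13.0% of it, covering counting error at 1 position only.

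Same-numbered mutant and Col-0 libraries of the ptac14 set deviated together (r = 0.60, 0.29 and 0.80 across genes), which pointed to pairing by replicate number. The main fits were unpaired in every set, and the replicate number entered only as a block in alternative fits. The pairing was inferred from these same values, since the titles give replicate numbers only. In the ptac3 set r was -0.55, -0.46 and -0.04, and in the pTAC3 set 0.51, -0.09 and 0.02.

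The genes and lists were chosen with earlier results of these data known. Named are the 6 genes, trnW and trnP, 8 neighbours, the genes of cytochrome b6f and of photosystem I with its assembly factors, and the 3 entries nearest to each of the 6. Alternatives were other pseudocounts, scalings, inputs, gene values, filters, fits and leaving out each replicate. Base composition and sequences were not analysed here.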

Additional observations from a re-analysis of the deposited data

How the results depend on the processing

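The scaling decided directions. With libraries scaled to their median bin, entries called higher in the mutant numbered 13, 27 and 22 for the ptac3, ptac14 and pTAC3 sets, against 66, 69 and 67, and entries called lower 64 and 68 in the ptac3 and ptac14 sets, against 39 and 35. With the rpo scaling 0 were called higher in each set, and 89, 105 and 107 lower. Median-bin scaling turned the changes to -0.66 for psaJ, -0.046 for psaI, -0.18 for cemA and -0.048 for petA (ptac3 set), -0.87 for petG, -1.06 for psaJ, -0.12 for cemA and -0.086 for petA (ptac14 set), and -0.41 for petG and -0.072 for cemA (pTAC3 set). petG in the ptac3 set was at -0.58, called under neither scaling. It turned Col-0 over input to 0.42 for petG, 0.70 for psaJ and 0.12 for cemA (ptac3 set), 0.74 for petG, 1.27 for psaJ, 0.080 for psaI, 0.23 for cemA and 0.091 for petA (ptac14 set), and 0.39 for petG and 0.090 for cemA (pTAC3 set). The rpo scaling turned the changes to -0.13 for petL, -0.97 for petG, -1.05 for psaJ, -0.42 for psaI, -0.57 for cemA and -0.43 for petA (ptac3 set), -1.57 for petG, -1.75 for psaJ, -0.27 for psaI, -0.81 for cemA and -0.77 for petA (ptac14 set), and -0.46 for petL, -1.08 for petG, -0.44 for psaI, -0.73 for cemA and -0.49 for petA (pTAC3 set). It turned Col-0 over input to 0.046 for petL, 0.82 for petG, 1.09 for psaJ, 0.33 for psaI, 0.52 for cemA and 0.39 for petA (ptac3 set), 0.010 for petL, 1.43 for petG, 1.96 for psaJ, 0.76 for psaI, 0.92 for cemA and 0.78 for petA (ptac14 set), and 0.41 for petL, 1.02 for petG, 0.51 for psaI, 0.72 for cemA and 0.53 for petA (pTAC3 set). psaJ in the pTAC3 set, at -0.02 on the mean scaling, changed by -0.96 on the median-bin scaling and -1.63 on the rpo scaling. Its Col-0 enrichment over input there was 0.0016 on the mean scaling, 0.96 on the median-bin scaling and 1.59 on the rpo scaling. By construction the scaling adds the same shift to nearly every gene.

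The cluster difference in ptac14 was -0.14 with a pseudocount of 25% and -0.13 with the mean of bin ratios, against -0.16. Its means in the other groups moved by less than the replicate SD under these alternatives and both scalings. Leaving out each replicate gave 65 to 70 entries called higher and 34 to 48 lower. With the replicate number as a block 66, 74 and 67 entries were called higher and 36, 40 and 47 lower for the ptac3, ptac14 and pTAC3 sets. Beside the calls of petG and psaI in the ptac14 set, the block changed no call of the 6 genes. petG in the ptac14 set was also called with a pseudocount of 25% (adjusted p = 0.043), the mean of bin ratios (0.032) and all groups in 1 fit (0.016). The scalings of the comparisons between antigens and between mutants were added after the data were seen. Short genes share reads with their flanks, and coverage carries no count of molecules. With 3 replicates per group, a change as small as that of psaJ on the mean scaling can show little.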

Other observations

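The ribosomal protein genes after psaJ differed in their changes. rpl33, the ribosomal protein gene after psaJ, averaged -0.17 ± 0.06 in ptac3 and -0.25 ± 0.19 in Col-0 of the ptac3 set, 0.11 ± 0.04 in ptac14 (ptac14 set) and -0.28 ± 0.29 in Col-0 of that set, and 0.00098 ± 0.27 in ptac3 and -0.21 ± 0.24 in Col-0 of the pTAC3 set (SD, n = 3 each). Its differences of 0.08, 0.39 and 0.21 passed the test in no set (limma adjusted p = 0.66, 0.087 and 0.22). rps18, the ribosomal protein gene that follows, averaged 0.04, 0.14 and -0.01 in the mutants, against -0.94, -1.28 and -0.83 in Col-0, and its differences of 0.99, 1.43 and 0.82 passed in each set (largest limma adjusted p = 2.3e-05). All these are values with libraries scaled to their mean.

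Between the clusters, a stretch of 200 bp at positions 64351 to 64550, after psbE (a photosystem II subunit gene) by position, was above input in all 9 Col-0 libraries. It averaged -0.01 ± 0.14 in ptac3 and 0.54 ± 0.17 in Col-0 of the ptac3 set, 0.15 ± 0.23 in ptac14 (ptac14 set) and 0.75 ± 0.09 in Col-0 of that set, and 0.10 ± 0.05 in ptac3 and 0.94 ± 0.12 in Col-0 of the pTAC3 set. The groups did not overlap in any set. The stretch was chosen for its Col-0 values, so no test was made. The genes psbE, psbF, psbL and psbJ beside it were below input in Col-0, with psbE at -0.73, -1.06 and -0.66.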
